A study of Mus musculus with 8 samples.

Results

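The genes described here encode the voltage-gated sodium channels, the voltage-gated calcium channels and the pacemaker channels. They were taken by name from the platform annotation: every gene with a singly named probe set whose symbol begins with Scn followed by a number and ends in a or b, begins with Cacna, Cacnb or Cacng, or begins with Hcn followed by a number. This gave 38 of the 19938 singly named genes on the array, and the probe set of highest mean stood for each gene. Other genes of these families had no singly named probe set in the annotation used and were not analysed here.

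The values come from 8 samples of myocardial tissue from male mice 8 to 10 weeks old, with body weights of 25 to 30 g. The labels call the strain CH3. They number the samples 1 to 4 within each group, and each sample was taken as 1 mouse. In the DJ-1 group (4 mice) recombinant DJ-1, a redox-sensitive protein encoded by Park7, was given 1 hour ahead of ligation of the left anterior descending artery. In the placebo group (4 mice) phosphate-buffered saline was given at that time. All 8 hearts, placebo included, had 45 minutes of occlusion and 2 hours of reperfusion, so no heart here was free of ischaemia. For the protein, the sources used here give no dose or route.

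A voltage-gated sodium channel opens on depolarisation and carries the fast upstroke of the action potential in working heart muscle. L-type calcium channels then admit the calcium that triggers release from the sarcoplasmic reticulum, and T-type calcium channels serve mainly pacemaker and conduction cells. Pacemaker channels open on hyperpolarisation, are modulated by cyclic AMP and carry the inward current of diastolic depolarisation. Sodium channel and L-type calcium channel pores work with accessory subunits that affect their trafficking and gating.

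DJ-1 replicates 3 and 4 stood apart from the other arrays over all genes, at 19.6 and 23.5 on the first principal component against -15 to 5.31 for the other 6 arrays. Their lower quartiles were the highest of the 8 arrays, at 4.0 and 3.96 log2 units against 3.86 to 3.94, and their upper quartiles the lowest, at 7.03 and 7.00 against 7.07 to 7.11. Array medians ran from 5.25 to 5.35.

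Of the 38 channel genes 0 reached an adjusted p under 0.05 between DJ-1 and placebo hearts in limma, and 0 of all 19938 genes did so (0%). The adjusted p of the 38 genes was 0.824 or higher. At an unadjusted p under 0.05 there were 2 channel genes of 38 (5.26%), beside 1194 of all genes (5.99%), so the channel genes stood near the background. These were the calcium channel accessory subunit gene Cacna2d1, lower on average in the DJ-1 group, and Cacng2, higher on average. The share of all genes at that unadjusted threshold was 3.63% on the higher side and 2.36% on the lower side. When variances were left unmoderated, 0 genes reached the adjusted threshold and 1118 the unadjusted one.

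The size of a difference in signal was bounded for most of these genes. The 95% confidence interval lay inside a change of 1.5-fold in either direction for 37 of the 38 channel genes (97.4%), against 91.5% of all genes. Scn4b was the exception, with an interval of 0.658 to 1.05 as a fold. The 95th percentile of olfactory receptor genes, 4.74, served as a guide to the array background (the olfactory guide). Of the 38 channel genes 24 had means above it, beside 68.6% of all genes. For the other 14 a narrow interval bounds the signal of the probe set and says little about the transcript. The median difference of the 38 genes was 0.0003 and that of all genes 0.008 on the log2 scale, with 19 channel genes at a higher and 19 at a lower mean in DJ-1 hearts (52.5% of all genes were higher and 47.5% lower). That split depended on scaling: 13 were higher and 25 lower after quantile normalization (48.9% of all genes were lower there). The counts were 14 and 24 when arrays were centred on their medians (59.6% of all genes lower). After cyclic loess they were 12 and 26 (49.6% of all genes lower).

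**Figure D1:**
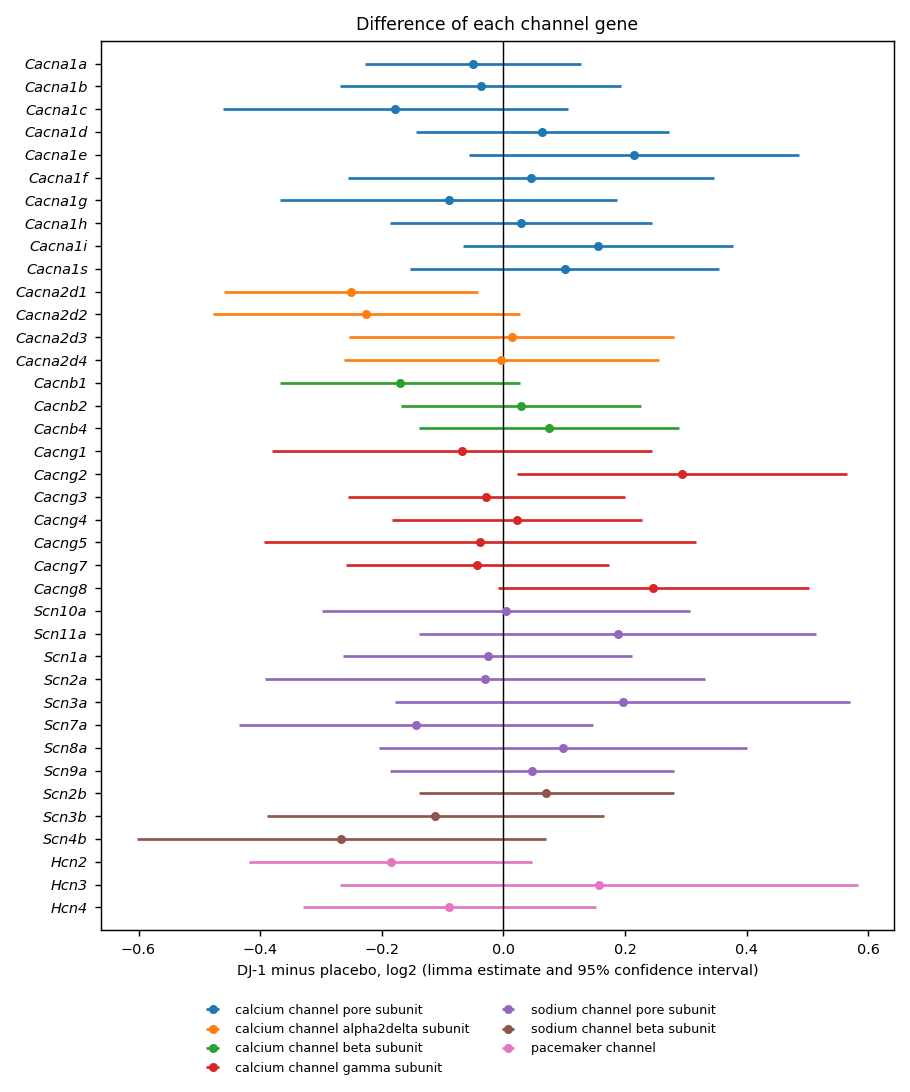
Log2 difference of each of the 38 channel genes, DJ-1 minus placebo (x axis), with the 95% confidence interval of the limma fit and n = 4 arrays in each group. Genes run down the page by role, and the intervals of Cacna2d1 and Cacng2 exclude 0 before adjustment.

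The count of channel genes at an unadjusted p under 0.05 moved with single arrays. Without DJ-1 replicates 3 and 4 it was 1 (Cacna2d2), beside 4.57% of all genes. It was 0 without placebo replicate 1, and 5 without placebo replicate 2 (Cacna1c, Cacna2d1, Cacng2, Hcn2 and Scn4b), beside 5.64% of all genes in each. Leaving out DJ-1 replicate 1 gave 4, beside 7.10% of all genes. Leaving out DJ-1 replicate 2, DJ-1 replicate 3 or placebo replicate 4 gave 1 each, beside 7.42%, 4.68% and 4.18% of all genes. No channel gene passed an adjusted p of 0.05 in any of these settings, where the lowest adjusted p was 0.651.

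Among the pore subunits of calcium channels, Cacna1c encodes the L-type pore of working heart muscle. Its log2 values were 9.88, 9.99, 10.20 and 9.96 in DJ-1 replicates 1 to 4, against 10.39, 9.88, 10.10 and 10.38 in placebo replicates 1 to 4. Placebo replicates 1 and 4 were the highest arrays and placebo replicate 2 the lowest, so the groups overlapped. The difference was -0.18 (SE 0.13, 95% confidence interval -0.46 to 0.11, adjusted p = 0.846). Without placebo replicate 2 it was -0.28 and without placebo replicate 1 it was -0.11. Without DJ-1 replicates 3 and 4 it was -0.25.

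The second L-type pore gene measured for the heart is Cacna1d, which is known for its part in sinoatrial pacemaking. It stood at 5.12, 5.14, 5.11 and 5.27 in DJ-1 replicates 1 to 4, against 5.02, 5.22, 5.18 and 4.96 in placebo replicates 1 to 4. DJ-1 replicate 4 lay above all placebo arrays and the other DJ-1 arrays within their range, and the difference was 0.06 (SE 0.10).

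The T-type pores are encoded by Cacna1g, Cacna1h and Cacna1i. Cacna1g had 6.50, 6.62, 6.44 and 6.92 in DJ-1 hearts, against 6.47, 6.86, 6.76 and 6.76 in placebo hearts. The highest and the lowest value both belonged to DJ-1 arrays, and the difference was -0.09 (95% confidence interval -0.37 to 0.19). Leaving out DJ-1 replicate 3 gave -0.03, and leaving out DJ-1 replicate 4 gave -0.19. Cacna1h had 4.98, 5.04, 5.26 and 5.29 in DJ-1 hearts, against 5.11, 5.07, 5.15 and 5.13 in placebo hearts. The placebo values lay between the lower pair and the upper pair of DJ-1 values, with SDs of 0.16 in DJ-1 and 0.04 in placebo hearts (n = 4 each), and the difference of 0.03 turned negative under all 3 scalings. Cacna1i differed by 0.16 (95% confidence interval -0.07 to 0.38).

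The other 5 pore genes are better known from nerve, skeletal muscle and retina. Cacna1s, the voltage sensor of skeletal muscle, averaged 6.30 ± 0.18 in DJ-1 hearts and 6.20 ± 0.15 in placebo hearts (SD, n = 4 each). The presynaptic pore genes Cacna1a and Cacna1b differed by -0.05 and -0.04. Cacna1e, the R-type pore, averaged 4.78 ± 0.11 in DJ-1 hearts and 4.56 ± 0.24 in placebo hearts (SD, n = 4 each), with a difference of 0.21 (95% confidence interval -0.06 to 0.49). The retinal pore gene Cacna1f ranged from 4.0 to 4.67 in DJ-1 hearts and from 4.21 to 4.25 in placebo hearts. Cacna1e and Cacna1f had means below the olfactory guide.

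Of the accessory subunits, the alpha2delta proteins sit on the outer face of the calcium channel, raise its surface expression and, for the products of Cacna2d1 and Cacna2d2, bind gabapentinoid drugs. Cacna2d1 had log2 values of 9.65, 9.59, 9.64 and 9.69 in DJ-1 replicates 1 to 4, against 10.09, 9.87, 9.75 and 9.86 in placebo replicates 1 to 4. Every DJ-1 value lay below every placebo value, and the DJ-1 arrays were closely spaced (9.64 ± 0.04 in DJ-1 hearts and 9.89 ± 0.14 in placebo hearts, SD, n = 4 each). The difference was -0.25 (SE 0.10, 95% confidence interval -0.46 to -0.04), or 0.841 as a fold, with an unadjusted p of 0.0231 and an adjusted p of 0.824 in the limma fit, so it did not pass. Leaving out each array in turn gave -0.30 to -0.19, the smallest without placebo replicate 1, where the unadjusted limma p was 0.0721. That p was also above 0.05 without DJ-1 replicate 2 (0.0566) and with the mean of both probe sets (0.0612). Without DJ-1 replicates 3 and 4 it was -0.27, with an unadjusted limma p of 0.0505.

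Cacna2d1 had a second singly named probe set, and its values give a check of the first on the same RNA. It stood at 9.20, 9.07, 9.09 and 9.19 in DJ-1 replicates 1 to 4, against 9.21, 9.27, 9.14 and 9.37 in placebo replicates 1 to 4. The groups overlapped there, and the difference was -0.11 (SE 0.09), of the same sign and smaller. In tissue of mixed cells, fewer cells of a type and less RNA per cell cannot be told apart.

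The upstream sequences of Cacna2d1 and Cacng2 are shown because these were the channel genes of smallest p on the lower and on the higher side. Each run is the 250 bases before the RefSeq start, 5′ to 3′ on the strand of the gene, in build GRCm38.p6. Capitals mark the letters GGGCGG or CCGCCC, the GC box on either strand, and neighbouring matches may overlap. The windows lie at chr5:15934441-15934690 on the plus strand for Cacna2d1 and at chr15:78119281-78119530 on the minus strand for Cacng2.
Cacna2d1: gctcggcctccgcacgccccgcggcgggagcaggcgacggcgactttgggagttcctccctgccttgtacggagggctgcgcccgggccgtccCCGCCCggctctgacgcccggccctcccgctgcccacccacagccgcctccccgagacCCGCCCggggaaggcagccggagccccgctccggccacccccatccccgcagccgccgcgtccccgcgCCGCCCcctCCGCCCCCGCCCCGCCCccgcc
Cacng2: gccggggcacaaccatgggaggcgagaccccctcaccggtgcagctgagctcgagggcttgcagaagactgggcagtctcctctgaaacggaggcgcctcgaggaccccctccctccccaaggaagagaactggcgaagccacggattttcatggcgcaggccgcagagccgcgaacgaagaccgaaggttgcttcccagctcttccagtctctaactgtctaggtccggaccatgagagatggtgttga
The Cacna2d1 window held 6 GC box matches, 36 CpG dinucleotides and 82.4% G or C. The Cacng2 window held 0 matches, 16 CpG dinucleotides and 62% G or C. Across all 32851 promoter windows of this length, 32.7% held at least 1 match, and the median was 6 CpG dinucleotides and 52.4% G or C. RefSeq windows were at hand for 29 of the 38 channel genes (39 windows), and 16 of those windows held a match (41%). The letters of a cyclic AMP response element, TGACGTCA, were in 0 of the 39 windows and in 1.55% of all windows. These are matches of letters and not measured binding.

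The other alpha2delta genes had wider overlap. Cacna2d2 averaged 5.02 ± 0.21 in DJ-1 hearts and 5.24 ± 0.09 in placebo hearts (SD, n = 4 each), with a difference of -0.23 (95% confidence interval -0.48 to 0.03). Cacna2d3 and Cacna2d4 differed by 0.01 and -0.004.

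The beta subunits bind the pore from the cytoplasm and carry it to the membrane. Cacnb1, best known from skeletal muscle, had 5.59, 5.57, 5.64 and 5.48 in DJ-1 replicates 1 to 4, against 5.87, 5.64, 5.71 and 5.74 in placebo replicates 1 to 4. The groups did not overlap, but the highest DJ-1 array (5.643) and the lowest placebo array (5.644) were almost equal. The difference was -0.17 (95% confidence interval -0.37 to 0.03, adjusted p = 0.824). Cacna2d1 and Cacnb1 were the 2 channel genes without overlap, both lower in DJ-1 hearts, where 1.68% of all genes were lower and 3.22% separated in either direction.

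Cacnb2, whose product is the main beta subunit of heart muscle, had 4.47, 4.58, 4.64 and 4.55 in DJ-1 hearts, against 4.64, 4.42, 4.51 and 4.55 in placebo hearts. Its difference was 0.03 (95% confidence interval -0.17 to 0.23) and it turned negative under all 3 scalings. Its mean lay below 4.74, the 95th percentile of 1015 olfactory receptor genes used as a guide to the background of the array, so this probe set says little about the transcript. Cacnb4 differed by 0.07.

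Among the gamma subunit genes, the product of Cacng1 belongs to the skeletal muscle calcium channel, while those of Cacng2, Cacng3, Cacng4, Cacng5, Cacng7 and Cacng8 are known mainly as partners of AMPA-type glutamate receptors. Cacng2, which encodes stargazin, had 6.02, 5.82, 6.03 and 6.25 in DJ-1 replicates 1 to 4, against 5.59, 5.82, 5.97 and 5.56 in placebo replicates 1 to 4. DJ-1 replicate 4 was highest, placebo replicates 1 and 4 were lowest, and the groups overlapped. The difference was 0.29 (SE 0.12, 95% confidence interval 0.02 to 0.57), or 1.23 as a fold, with an unadjusted p of 0.0368 and an adjusted p of 0.824 in the limma fit, so it did not pass. It was 0.18 without DJ-1 replicates 3 and 4. Its unadjusted limma p was also above 0.05 when DJ-1 replicate 1, 3 or 4 or placebo replicate 1 or 4 was left out (0.0594 to 0.108), with arrays centred on their medians (0.0530), without moderated variances (0.0675), with array weights (0.0739) and with a replicate block (0.0533).

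The second probe set of Cacng2 had a lower level, with 4.26, 4.23, 4.40 and 4.45 in DJ-1 hearts and 3.80, 4.25, 4.13 and 4.17 in placebo hearts. Its difference was 0.25 (SE 0.11), of the same sign, although its level was that of olfactory receptor genes. Cacng8 averaged 5.25 ± 0.21 in DJ-1 hearts and 5.01 ± 0.10 in placebo hearts (SD, n = 4 each), a difference of 0.25 (95% confidence interval -0.01 to 0.50). Its neighbour on chromosome 7, Cacng7, differed by -0.04. Cacng1, Cacng4 and Cacng5, which lie side by side on chromosome 11, differed by -0.07, 0.02 and -0.04, and Cacng3 by -0.03.

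**Figure D2:**
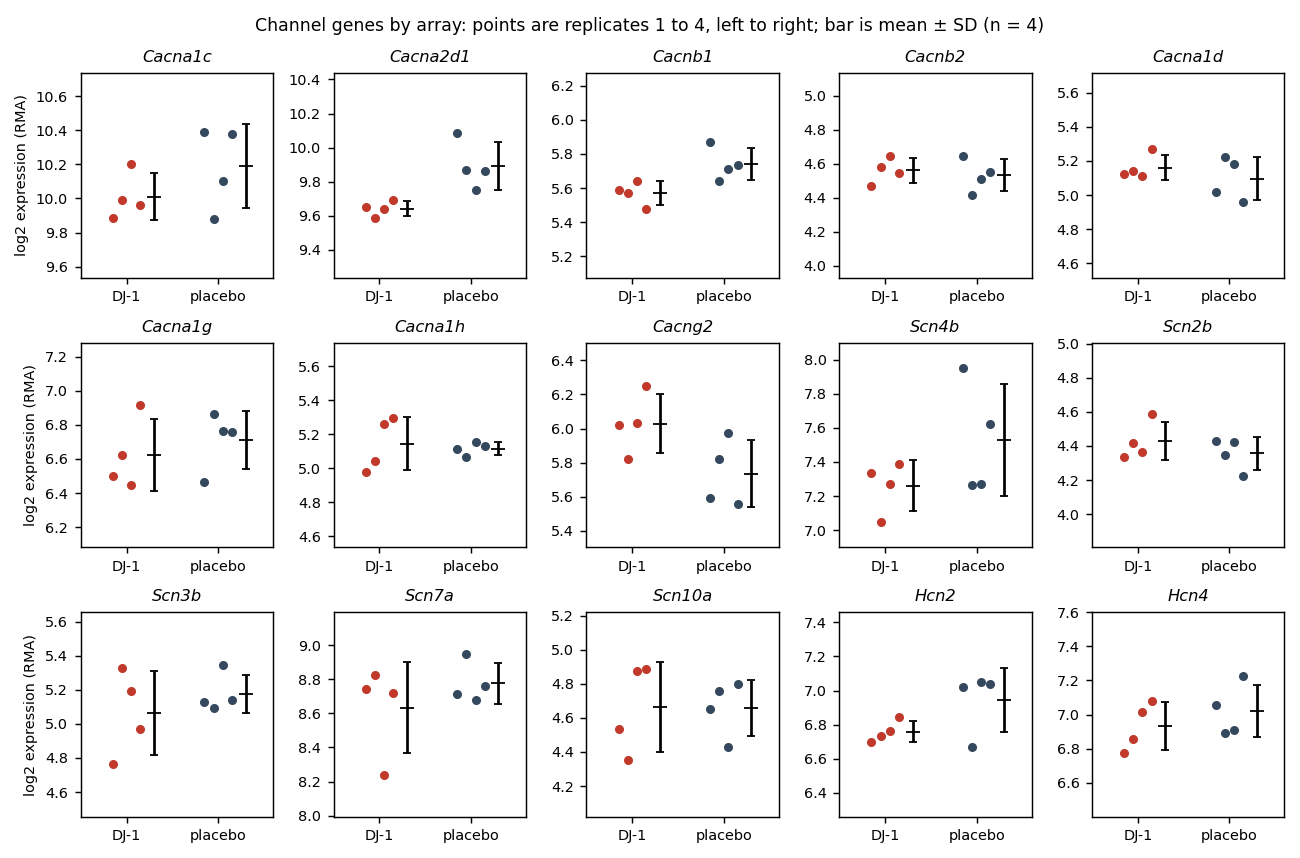
Log2 expression (y axis, RMA) of 15 channel genes in each array, with DJ-1 left of placebo, points for replicates 1 to 4 and bars for the mean ± SD (n = 4); every panel spans the same range of log2 units around its own centre. Cacna2d1 separates the groups, Cacnb1 does so narrowly, and in the other panels the groups overlap.

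Among the sodium channel pores, the product of Scn7a is the atypical sodium channel that senses extracellular sodium and is known from glial and Schwann cells. Scn7a had 8.75, 8.83, 8.24 and 8.72 in DJ-1 replicates 1 to 4, against 8.71, 8.95, 8.68 and 8.76 in placebo replicates 1 to 4. DJ-1 replicate 3 stood below all other arrays. The difference was -0.14 (95% confidence interval -0.43 to 0.15), and -0.01 without DJ-1 replicate 3.

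Scn10a, first known from sensory neurons, lies next to Scn11a on chromosome 9. It had 4.54, 4.35, 4.88 and 4.89 in DJ-1 hearts, against 4.65, 4.76, 4.43 and 4.80 in placebo hearts. DJ-1 replicates 3 and 4 were its highest arrays and DJ-1 replicate 2 its lowest. The difference was 0.004 (95% confidence interval -0.30 to 0.31), and it turned negative under all 3 scalings. Without DJ-1 replicates 3 and 4 it was -0.22.

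The remaining pores are those of neurons. Scn11a, a channel of pain-sensing neurons, ranged from 4.25 to 4.94 in DJ-1 hearts and from 4.28 to 4.55 in placebo hearts, with a difference of 0.19. Scn8a ranged from 3.59 to 4.25 in DJ-1 hearts and from 3.72 to 3.86 in placebo hearts, with a difference of 0.10. On chromosome 2, where the brain genes Scn1a, Scn2a and Scn3a and the peripheral nerve gene Scn9a lie near Scn7a, the differences were -0.03 for Scn1a, -0.03 for Scn2a, 0.20 for Scn3a and 0.05 for Scn9a. Of the 8 pore genes, Scn2a and Scn7a had means above the olfactory guide.

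Scn2a was covered by 14 singly named probe sets, with means from 2.24 to 4.93 on the log2 scale. Their differences ran from -0.51 to 0.16, with 5 higher and 9 lower in DJ-1 hearts. At an unadjusted p under 0.05 there were 2 of the 14, both lower and both below the olfactory guide, and the lowest adjusted p of the 14, with adjustment over the 21789 singly named probe sets, was 0.826. Probe sets of this gene therefore disagreed in sign, and the one used for the gene differed by -0.03 (SE 0.17). All the others had means of 4.46 or lower, below the olfactory guide, so their mixed signs say little about the gene.

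**Figure D3:**
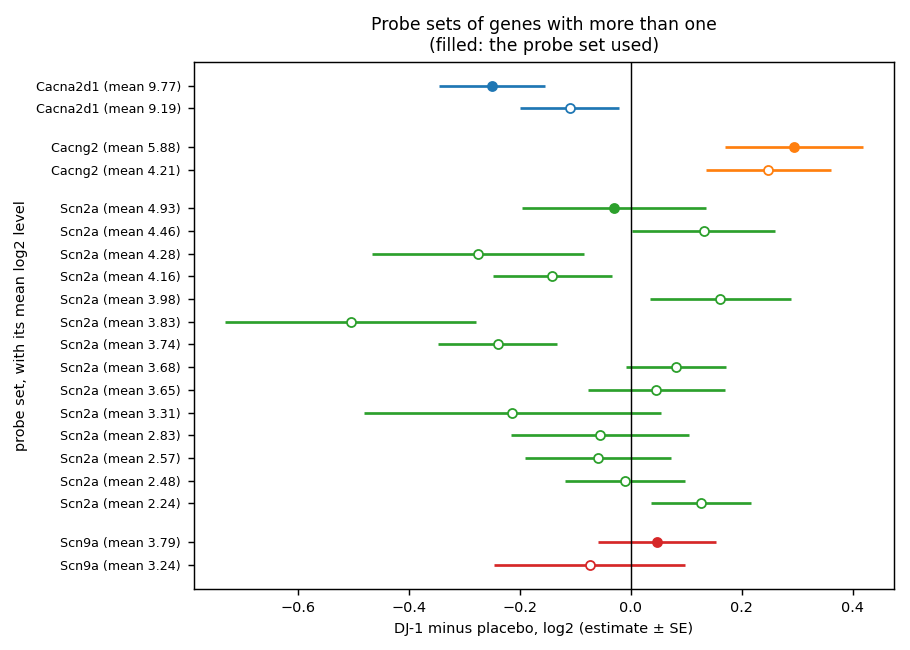
Log2 difference of each probe set, DJ-1 minus placebo (x axis, estimate ± SE of the limma fit) for the 4 channel genes with more than 1 singly named probe set; the labels give the mean log2 level and filled points mark the probe set used. The probe sets of Cacna2d1 share a sign, as do those of Cacng2, while those of Scn2a and Scn9a lie on both sides of 0.

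Sodium channel beta subunits are single-pass proteins that modulate gating and take part in cell adhesion. Scn4b had 7.33, 7.05, 7.27 and 7.39 in DJ-1 replicates 1 to 4, against 7.95, 7.27, 7.27 and 7.62 in placebo replicates 1 to 4. Placebo replicates 1 and 4 were above all DJ-1 arrays, and placebo replicates 2 and 3 were within the DJ-1 range. The difference was -0.27 (SE 0.15, 95% confidence interval -0.60 to 0.07, adjusted p = 0.824). Without placebo replicate 1 it was -0.13, and without placebo replicate 2 it was -0.35, so single placebo hearts decided its size.

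Scn2b, the neighbour of Scn4b on chromosome 9, had 4.34, 4.42, 4.36 and 4.59 in DJ-1 hearts, against 4.43, 4.35, 4.42 and 4.22 in placebo hearts. Its level was below the olfactory guide and the difference was 0.07 (SE 0.10). Scn3b had 4.77, 5.33, 5.19 and 4.97 in DJ-1 hearts, against 5.13, 5.09, 5.34 and 5.14 in placebo hearts. The DJ-1 arrays of Scn3b were spread more widely (SD 0.25 in DJ-1 and 0.11 in placebo hearts, n = 4 each), and the difference was -0.11 (95% confidence interval -0.39 to 0.16). Leaving out DJ-1 replicate 1 gave -0.01, and leaving out DJ-1 replicate 2 gave -0.20.

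Of the pacemaker channel genes, Hcn4 encodes the main channel of the sinoatrial node and Hcn2 the form best known from working ventricle. Hcn2 had 6.70, 6.73, 6.76 and 6.84 in DJ-1 replicates 1 to 4, against 7.02, 6.67, 7.05 and 7.04 in placebo replicates 1 to 4. Placebo replicates 1, 3 and 4 lay above all DJ-1 arrays and placebo replicate 2 lay below them. The difference was -0.19 (SE 0.11, 95% confidence interval -0.42 to 0.05, adjusted p = 0.824). Without placebo replicate 2 it was -0.28, and without DJ-1 replicates 3 and 4 it was -0.23.

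Hcn4 had 6.77, 6.86, 7.02 and 7.08 in DJ-1 hearts, against 7.05, 6.89, 6.91 and 7.23 in placebo hearts. The ranges overlapped over most of their length, and the difference was -0.09 (95% confidence interval -0.33 to 0.15), or -0.21 without DJ-1 replicates 3 and 4. Leaving out DJ-1 replicate 1 gave -0.04, and leaving out placebo replicate 4 gave -0.02. Hcn3 spread from 4.32 to 5.28 in DJ-1 hearts and from 4.40 to 5.01 in placebo hearts, so that its difference of 0.16 had the widest interval of the pacemaker genes (-0.27 to 0.58). Its mean lay below the olfactory guide.

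The channel genes also varied together between arrays within the DJ-1 group. The median deviation of the 38 genes from their own means was -0.11, -0.06, 0.07 and 0.12 in DJ-1 replicates 1 to 4, against 0.02, -0.06, 0.03 and 0.01 in placebo replicates 1 to 4. DJ-1 replicates 3 and 4 were thus the highest arrays and DJ-1 replicate 1 the lowest, with DJ-1 replicate 2 level with placebo replicate 2. Most channel genes lie at or below the median level of all genes, where the array as a whole was also higher in DJ-1 replicates 3 and 4, with median deviations of 0.07 and 0.11 over all such genes. DJ-1 replicate 4 held the highest value of 13 of the 26 channel genes at that level (50%), against 29.8% of all genes there. DJ-1 replicate 1 held the lowest value of 8 of the 26, against 11.2% of all genes there. Of the 12 channel genes above the median level, DJ-1 replicate 4 and placebo replicate 1 each held the highest value of 4. The shares of all genes there were 9.70% and 18.9%. Median deviations of these 12 genes were -0.11, -0.05, -0.02 and 0.01 in DJ-1 replicates 1 to 4. In placebo replicates 1 to 4 they were 0.08, -0.07, 0.001 and 0.09, so placebo replicates 1 and 4 were the highest arrays for them. Without DJ-1 replicates 3 and 4 the median difference of the channel genes was -0.10, with 11 higher and 27 lower. The median of all genes was then 0.0004, with 49.9% of all genes lower.

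**Figure D4:**
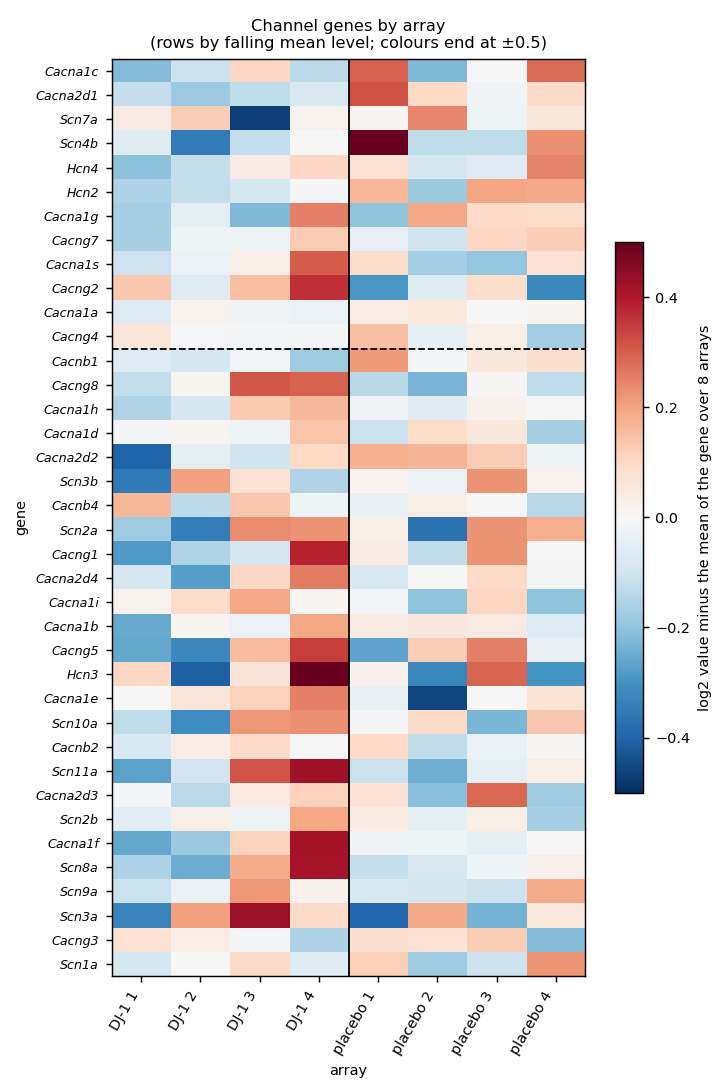
Deviation of each channel gene from its own mean over the 8 arrays (colour, log2 units), with arrays in columns, DJ-1 left of placebo, and genes in rows by falling mean level; the dashed line marks the median level of all genes. Below the line DJ-1 replicates 3 and 4 are mostly above 0 and DJ-1 replicates 1 and 2 mostly below 0.

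The sign of the difference varied with the level of the probe set, in the channel genes and in the whole array. Of the 12 channel genes above the median level of all genes (5.79), 9 were lower on average in the DJ-1 group (75%), and the median difference was -0.09. Those lower were Cacna1c, Cacna2d1, Scn7a, Scn4b, Hcn4, Hcn2, Cacna1g, Cacng7 and Cacna1a, and those higher were Cacna1s, Cacng2 and Cacng4. Among all genes above that level 61.2% were lower, with a median of -0.03. Of the 26 channel genes at or below it, 16 had a higher mean (61.5%), with a median of 0.03, against 66.2% and 0.06 for all genes there.

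For the 12 genes of higher level the split of 9 lower to 3 higher was also seen after quantile normalization and cyclic loess, with medians of -0.06 in both, and without DJ-1 replicates 3 and 4, with a median of -0.13. In the same settings 53.8%, 51.8% and 50% of all genes above the median level were lower. With arrays centred on their medians 10 were lower and 2 higher, with a median of -0.13, while 74.4% of all genes at that level were lower. For the 26 genes of lower level the split turned to 16 lower after quantile normalization and 14 with arrays centred on their medians. It turned to 17 lower after cyclic loess and 18 without DJ-1 replicates 3 and 4. In the same 4 settings 43.9%, 44.7%, 47.4% and 49.8% of all genes at or below the median level were lower. These counts are descriptions, since the genes share their arrays.

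**Figure D5:**
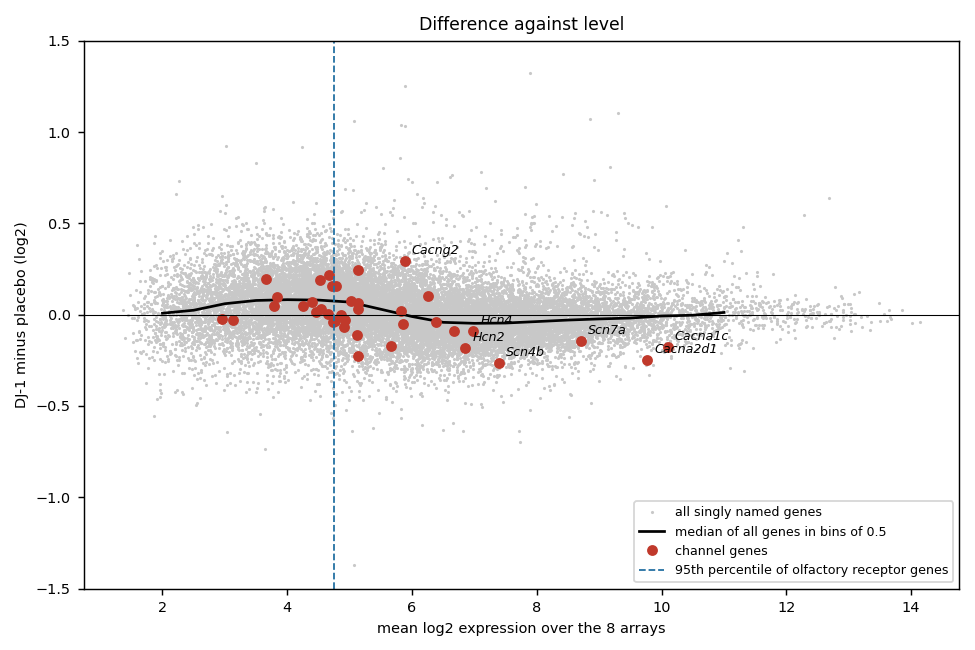
Log2 difference, DJ-1 minus placebo (y axis), against the mean log2 level over the 8 arrays (x axis) for all singly named genes (grey) and the 38 channel genes (red), with the median of all genes along the level (black line) and the olfactory guide (dashed). Cacna1c, Cacna2d1, Scn7a, Scn4b, Hcn2 and Hcn4 lie below 0.

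Proteins that bind or regulate these channels were examined as 3 lists, with another list for conduction and pacemaker cells. Their 52 measured genes included 0 past an adjusted p of 0.05. At an unadjusted p under 0.05 there was 1 of the 52, beside 5.99% of all genes, so these lists did not exceed the background. That gene was Cabp1, a neuronal calcium-binding protein that modulates L-type and presynaptic calcium channels, which averaged 5.32 in DJ-1 hearts and 4.89 in placebo hearts. Its difference was 0.43 (SE 0.10, unadjusted p = 0.00141, adjusted p = 0.824 in the limma fit), and its groups did not overlap. The other calcium channel regulators had smaller differences. Rrad and Gem, small GTPases that inhibit the L-type channel, differed by -0.003 and 0.02, the junctional protein gene Jph2 by -0.18, and the calmodulin genes Calm2 and Calm3 by -0.15 and 0.05. Of the 18 measured regulators 8 were higher and 10 lower.

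Sodium channel partners had 4 of 15 measured genes higher and 11 lower, with a median of -0.07, where 54.6% of all genes above the olfactory guide were lower. They include the ankyrin gene Ank3, which anchors sodium channels at the intercalated disc, at -0.15, the fibroblast growth factor homologue Fgf13, a binding partner of sodium channels, at -0.07, and Gpd1l at 0.08. Tbx5, a transcription factor of the conduction system, differed by -0.23 (unadjusted p = 0.112 in the limma fit). Of 7 measured pacemaker channel partners 2 were higher and 5 lower, among them Kcne2, an accessory subunit, at 0.29, and the trafficking partner Pex5l at 0.06. Kcne2 had a level below the olfactory guide, and its groups overlapped. Conduction and pacemaker cell markers had 4 of 15 higher and 11 lower, with Tbx3 at -0.09, Irx3 at -0.18 and Cntn2 at 0.17. Shox2 and Isl1, transcription factors of the sinoatrial node, had levels below the olfactory guide.

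The labelled tissue carried its defining transcripts in every array: the mean log2 level of 12 ventricular markers ran from 12.67 to 12.84 in DJ-1 hearts and from 12.71 to 12.87 in placebo hearts, with 3 higher and 9 lower. The 7 atrial markers ran from 6.51 to 6.65 in DJ-1 hearts and from 6.36 to 7.07 in placebo hearts, with 4 higher and 3 lower. Smooth muscle and pericyte markers were lower in 10 of 12, led by Kcnj8 at -0.44 and Pdgfrb at -0.30, and ran from 8.86 to 9.05 in DJ-1 hearts and from 8.98 to 9.10 in placebo hearts. Fibroblast markers were lower in 11 of 12, with Lum at -0.31 and Gsn at -0.21 at an unadjusted p under 0.05, and ran from 8.48 to 8.61 in DJ-1 hearts and from 8.58 to 8.75 in placebo hearts. Endothelial markers were lower in 6 of 10, led by Kdr at -0.48. Most genes of the ventricular, smooth muscle, fibroblast and endothelial lists had lower means in DJ-1 hearts, as Cacna2d1 did. Among all genes above the median level 61.2% were lower. The part of these cell types in the Cacna2d1 difference was not tested.

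Markers of nerve and its sheath bear on the neuronal channel genes. Of 14 neuron markers 9 were higher, with Dbh at 0.35, Chat at 0.32 and Elavl4 at 0.30 at an unadjusted p under 0.05, all below the olfactory guide. Of all genes 52.5% were higher, and of those at or below that guide 68.0%. The neuron list mean ran from 4.70 to 4.89 in DJ-1 hearts and from 4.66 to 4.77 in placebo hearts. Of 10 Schwann and glial markers 5 were higher, with Foxd3 at 0.36, and the list mean ran from 5.75 to 5.79 in DJ-1 hearts and from 5.65 to 5.84 in placebo hearts. Their part in the values of Cacng2, Scn7a and Cabp1 was not tested. Skeletal muscle markers were higher in 4 of 12, neutrophil markers in 14 of 14 with a median of 0.75, and erythroid markers in 5 of 5 with a median of 0.28. At an unadjusted p under 0.05 were the neutrophil genes Lcn2 at 1.07, Cd177 at 0.41 and Ltf at 0.35, and the erythroid genes Slc4a1 at 0.59 and Klf1 at 0.28. The neutrophil list mean ran from 5.67 to 7.22 in DJ-1 hearts and from 4.82 to 6.94 in placebo hearts, so its groups overlapped, while the erythroid list mean ran from 6.01 to 6.34 in DJ-1 hearts and from 5.72 to 5.98 in placebo hearts, with no overlap. Skeletal muscle markers, which bear on Cacnb1 and Cacna1s, ran from 5.42 to 5.64 in DJ-1 hearts and from 5.28 to 6.23 in placebo hearts. The part of these lists in the channel values was not tested.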

How the data were processed

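Total RNA of RNA integrity number above 7 was hybridised, per the labels' protocols, to whole-transcript Affymetrix arrays. The deposited log2 values of 35556 probe sets were made by the authors with RMA, per the submitters' processing notes. RMA usually includes background correction and quantile normalization; the sources used here give no version, settings or scan batch. Gene names came from the platform annotation (21789 probe sets with 1 symbol, 1621 with several, 12146 with none). For each gene the probe set of highest mean over the 8 arrays was taken.

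DJ-1 was compared with placebo over all 19938 genes with limma 3.58.1 in R 4.3.3 (lmFit and eBayes, two-sided, no covariate), with Benjamini-Hochberg adjustment over all genes. The fit was tested on simulated data. Differences are in log2 units, DJ-1 minus placebo, with SE or 95% confidence intervals of the fit. The number of arrays limits the precision: the median half-width of the interval was 0.255 for the channel genes. Levels of different probe sets depend on their probes, so they were set only against the olfactory guide and the median level, as rough marks of detection. The labels number the samples within a group, and whether each is a separate mouse rests on them; p-values measure the spread between these samples.

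The members and the 14 gene lists (163 of 179 entries measured) were chosen with earlier results of these data known. Values in every array are given for the members of known cardiac use, those at an unadjusted p under 0.05 and those without overlap (15 in all); the other 23 are given by mean, range or difference. Of the lists, genes at an unadjusted p under 0.05 are named, at most 5 for each list; other list genes named were chosen after their values were seen. Alternatives changed the normalization, level filter, probe set rule, variance model, array weights, replicate block and arrays used.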

Additional observations from a re-analysis of the deposited data

Results flagged for a closer look

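Each of the 38 channel genes was examined in both groups of 4 arrays for a value far from the other 3, by Dixon's test of the gap to the nearest array over the range. Of the 76 groups 5 had such a value, and chance flags about 1 in 20 groups. Cacng4 in DJ-1 replicate 1 was 5.88, with the other DJ-1 arrays between 5.81 and 5.82. Hcn2 in placebo replicate 2 was 6.67, with the other placebo arrays between 7.02 and 7.05, and the Hcn2 difference was -0.28 without that array, against -0.19 with it. Placebo replicate 4 accounted for the other 3: Cacna1b at 4.70 with the others between 4.81 and 4.82, Cacng3 at 2.91 with the others between 3.20 and 3.25, and Scn9a at 3.98 with the others between 3.68 and 3.71. Cacng3 and Scn9a have levels within the range of olfactory receptor genes.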

How the results depend on the processing

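No channel gene passed an adjusted p of 0.05 in any of the 19 alternatives. Over all genes the count past that threshold stayed at 0 in the 11 alternatives other than leaving out single arrays, and ran from 0 to 1 with each array left out; the 1 gene was Pramel27, without DJ-1 replicate 3. The count of channel genes at an unadjusted p under 0.05 ran from 0 to 5 with each array left out (4.18% to 7.42% of all genes). It ran from 1 to 3 in the other 11 alternatives. The count was 1 with the mean of all probe sets of a gene (5.97% of all genes) and 1 without DJ-1 replicates 3 and 4 (4.57%). Cacna2d1, Cacna2d2 and Cacng2 made it 3 after quantile normalization (5.34%) and cyclic loess (5.36%). With arrays centred on their medians the 3 were Cacna2d1, Cacna2d2 and Cacnb1 (6.17%). Without moderated variances the 2 were Cacna2d1 and Cacnb1 (5.61%). The median difference of the channel genes was -0.0957 without DJ-1 replicates 3 and 4, a move larger than the spread between arrays (SD 0.08), and ran from -0.04 to 0.06 with each array left out.

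Of the 15 genes given by array, 10 kept the sign of their difference under every alternative run. The exceptions were Cacna1h, Cacnb2, Scn10a, Scn2b and Scn7a. Under quantile normalization they were -0.01792 for Cacna1h, -0.02523 for Cacnb2 and -0.04819 for Scn10a. With arrays centred on their medians they were -0.01391 for Cacna1h, -0.01327 for Cacnb2 and -0.03806 for Scn10a. After cyclic loess they were -0.02279 for Cacna1h, -0.04213 for Cacnb2, -0.06474 for Scn10a and -0.002135 for Scn2b. With array weights they were -0.0009148 for Cacna1h and -0.03098 for Scn10a. Without DJ-1 replicates 3 and 4 they were -0.1045 for Cacna1h, -0.005785 for Cacnb2, -0.2158 for Scn10a and 0.01035 for Scn7a. With each array left out, Cacna1h ran from -0.02095 to 0.08301, Cacnb2 from -0.008669 to 0.06659 and Scn10a from -0.07147 to 0.1086. The cause of these moves was not tested.

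Same-numbered arrays of the 2 groups had deviations correlated at 0.005, 0.17, 0.18 and 0.008, and differently numbered arrays at -0.28 to 0.29. The same-numbered values lay inside that range, so they cannot settle whether the numbers pair the samples. The main fit did not pair them. With the replicate number as a block 0 genes passed over all genes, 2 channel genes had an unadjusted p under 0.05 (6.53% of all genes) and the median difference was 0.0003. These were Cacna2d1 and Cacng8, while the unadjusted limma p of Cacng2 was 0.0533. Levels below or near the olfactory guide limit what Cacnb2, Scn2b, Hcn3, Cacna1e, Cacna1f, Cacna2d3, Cacng3, Cacng5 and the neuronal sodium channel pores can show.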
